A study of Mus musculus with 2 samples.

Results

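Interferon-gamma, the chemokines Cxcl9 and Cxcl10, and the receptors that read them were followed here through immune cells taken from osteosarcoma grafts. The 6 genes were chosen by name: Ifng, Ifngr1, Ifngr2, Cxcl9, Cxcl10 and Cxcr3. All 6 were found once each among the 32285 genes of the deposited matrices. Ifng encodes the cytokine interferon-gamma, which NK cells and T cells release. Ifngr1 and Ifngr2 encode the chains of its receptor: the first binds the cytokine, the second completes the signalling complex, and the JAK kinases act below them. Cxcl9 and Cxcl10 are chemokines that macrophages, monocytes and dendritic cells make under interferon, and both draw cells that carry Cxcr3; Cxcl9 depends largely on interferon-gamma, whereas Cxcl10 also answers type I interferon.

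Tumors of 143B, a human osteosarcoma line, were grown under the skin of female nude mice, 4 weeks old at the start. Mice were dosed at 10 mg/kg with a human IgG1 isotype control (control IgG) or with a humanized IgG1 against CD3L1, the protein also called ITPRIPL1 (anti-CD3L1). Mouse cells carrying CD45, the surface protein of blood-derived cells, were pulled out with magnetic beads and run on the 10x Genomics Chromium system. Each library pooled 3 tumors with no map from cell to tumor, so each treatment is 1 sample. The data allow no test between treatments. Every interval below is a 95% interval that covers counting error only, of UMIs for levels and ratios and of cells for shares of cells. No interval covers the spread between mice. Nude mice lack a working thymus and hence nearly all T cells but keep NK and myeloid cells, so the T cell source of interferon-gamma is largely missing from this model.

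After filtering, 8557 control IgG and 11269 anti-CD3L1 cells remained, with medians of 5526 and 8267 unique molecular identifiers (UMIs, counted RNA molecules) per cell. The libraries shared 26 cell barcodes. Cells were sorted into classes by fixed marker lists, with a scoring rule chosen after the data were seen. The 9 classes compared held at least 20 cells and a median of at least 10 UMIs of their own markers in each library. Their sizes differed widely. Neutrophil-like cells were 60.2% of control IgG cells and 3.96% of anti-CD3L1 cells, macrophage-like cells 5.34% and 30.5%, and NK-like cells 2.14% and 8.65%. The fibroblast-like gate was not compared because its control IgG cells held a median of 4 fibroblast marker UMIs against 16.5 of macrophage markers. Some dendritic classes held more UMIs of another list than of their own. The 27 control IgG type 1 cells held a median of 11 UMIs of their own markers, 13 of neutrophil markers and 15 of monocyte markers. The 22 control IgG type 2 cells held 13, 15.5 and 16, and the anti-CD3L1 type 2 cells held 14 of their own markers and 18 of monocyte markers. Between 17.8% and 27.0% of cells met no class and are called ungated. Levels are given as CPM, the UMIs of the gene for every 1000000 UMIs of the class. They are compared only within a gene.

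The chemokine genes lie side by side on mouse chromosome 5, and their upstream sequences are shown because their levels parted between the libraries. In the GRCm38 annotation, Cxcl9 spans chr5:92321347-92328079 and Cxcl10 spans chr5:92346638-92348889, both protein-coding and both on the minus strand. RefSeq (GRCm38.p6) gave a promoter for 6 of 6 genes, and the 250 bases before the start site are printed 5′ to 3′ on the strand of the gene, chr5:92328080-92328329 for Cxcl9 and chr5:92348890-92349139 for Cxcl10. Capitals mark matches, sought on both strands, to 3 motifs. GAS, the interferon-gamma activation site, was sought as TTCNNNGAA. ISRE, the interferon response element, was sought as GAAA, any 2 bases and GAAA again. For NF-kappaB only the short pattern GGGNNTTCC was sought. Longer forms of the NF-kappaB site are neither marked nor counted, so the counts do not rank the windows by NF-kappaB sites.
Cxcl9: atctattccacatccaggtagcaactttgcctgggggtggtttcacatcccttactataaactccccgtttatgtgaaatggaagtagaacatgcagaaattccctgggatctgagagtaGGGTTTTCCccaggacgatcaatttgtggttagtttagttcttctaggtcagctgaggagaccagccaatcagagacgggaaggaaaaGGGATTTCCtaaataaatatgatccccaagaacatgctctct
Cxcl10: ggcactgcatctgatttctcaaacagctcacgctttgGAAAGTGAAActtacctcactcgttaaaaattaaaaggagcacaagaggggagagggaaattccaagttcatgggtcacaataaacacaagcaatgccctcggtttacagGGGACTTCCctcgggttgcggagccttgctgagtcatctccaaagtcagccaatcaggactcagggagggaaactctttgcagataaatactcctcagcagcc
The Cxcl9 window held 2 NF-kappaB matches, GGGTTTTCC from 130 bases before the start and GGGATTTCC from 42 bases before it. The Cxcl10 window held 1 ISRE match, GAAAGTGAAA from 213 bases before the start, and 1 NF-kappaB match, GGGACTTCC from 103 bases before it. Of all 32851 promoters in the table, 7.02% held the GAS letters, 2.98% the ISRE letters and 4.98% the NF-kappaB letters. A match is a description of these letters and not a measured site, and a window without a match may still hold a site.

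Ifng was a gene of NK-like cells in both libraries. NK-like cells held 95.4% of the Ifng UMIs of the control IgG library and 87.9% of those of the anti-CD3L1 library. Their level was 139 CPM (124 to 155, 311 UMIs in 183 cells) in control IgG and 201 CPM (192 to 211, 1928 UMIs in 975 cells) in anti-CD3L1. All other cells together stood at 0.231 CPM (0.129 to 0.380) and 3.0 CPM (2.65 to 3.38). These levels lay below the 8.27 and 18.3 CPM of near-empty droplets, barcodes of 10 to 100 UMIs that hold free RNA. The log2 ratio of anti-CD3L1 to control IgG in NK-like cells was 0.54 (0.37 to 0.72). The size and the sign of this ratio depended on the choice of cells. In the NK-like cells whose score for a second class was also over the gate's minimum, Ifng was at 80.7 CPM in 103 control IgG cells and 187 CPM in 535 anti-CD3L1 cells. For 76 and 344 of these cells the second class was T cell, and the whole NK-like class held medians of 6 and 5 UMIs of T cell markers beside 54 and 39 of NK markers. In the NK-like cells without a second class it was at 249 CPM in 80 cells and 227 CPM in 440 cells, and the interval of the log2 ratio held 0 (-0.14, -0.37 to 0.10). A single control IgG cell without a second class held 62 of the 311 UMIs of the class and of the 192 in those 80 cells. Without the highest cell of each library, the cells without a second class stood at 171 and 215 CPM (log2 0.33, 0.06 to 0.61). With the highest cell of each library left out the levels were 111 and 196 CPM and the log2 ratio was 0.81.

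Few NK-like cells carried most of the Ifng RNA. At least 1 Ifng UMI was found in 39.3% of control IgG and 52.2% of anti-CD3L1 NK-like cells, against 0.0388% and 0% of neutrophil-like cells, which are not a usual source; for the 446 anti-CD3L1 neutrophil-like cells the floor of 3 UMIs used here for a count of 0 lies at 2.33 CPM. Median depths were 10964 and 8731 UMIs for NK-like cells and 4649 and 2217 for neutrophil-like cells. With every cell thinned to 1000 UMIs the NK-like shares were 12.0% (7.69 to 17.6) and 16.4% (14.1 to 18.9), and these intervals overlap. The 10% of NK-like cells with the most Ifng held 66.6% of its UMIs in control IgG and 54.3% in anti-CD3L1. Dividing NK-like cells, those with at least 3 of 6 cycle markers, were 19.1% and 18.6% of the class. Ifng in them was at 81.9 CPM (62.5 to 105) in control IgG, below the 166 CPM (146 to 188) of the other NK-like cells, and at 208 CPM (192 to 225) in anti-CD3L1, beside 198 CPM (187 to 209) in the others. Dividing cells were deeper, with medians of 20390 and 15951 UMIs against 9493.5 and 7664.5, and the part of depth in these levels was not tested.

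Outside NK-like cells Ifng was sparse. Innate lymphoid-like cells held 0 Ifng UMIs in 38 control IgG cells, for which the floor of 3 UMIs lies at 7.20 CPM, and 23 UMIs in 7 of 194 anti-CD3L1 cells (16.4 CPM, 10.4 to 24.5). In mature dendritic-like cells 15 of the 20 anti-CD3L1 UMIs sat in 1 cell. The T cell-like gate, of 4 and 32 cells, was too small to compare; its levels were 95.3 CPM (3 UMIs) and 218 CPM (56 UMIs). Over all cells Ifng stood at 4.84 CPM in control IgG and 22.4 CPM in anti-CD3L1, a log2 ratio of 2.21 (2.04 to 2.38). Weighting the anti-CD3L1 classes by the control IgG library's share of UMIs in each class gave 8.48 CPM and a log2 ratio of 0.81 (0.64 to 0.98, delta method). In pooled tissue more cells of a class and a higher level within the class cannot be told apart. The class levels above separate them, as far as the gate does. A level in CPM is a share of the UMIs of the class and not RNA per cell. Counted per cell, NK-like cells held a mean of 1.70 Ifng UMIs in control IgG and 1.98 in anti-CD3L1.

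**Figure D1:**
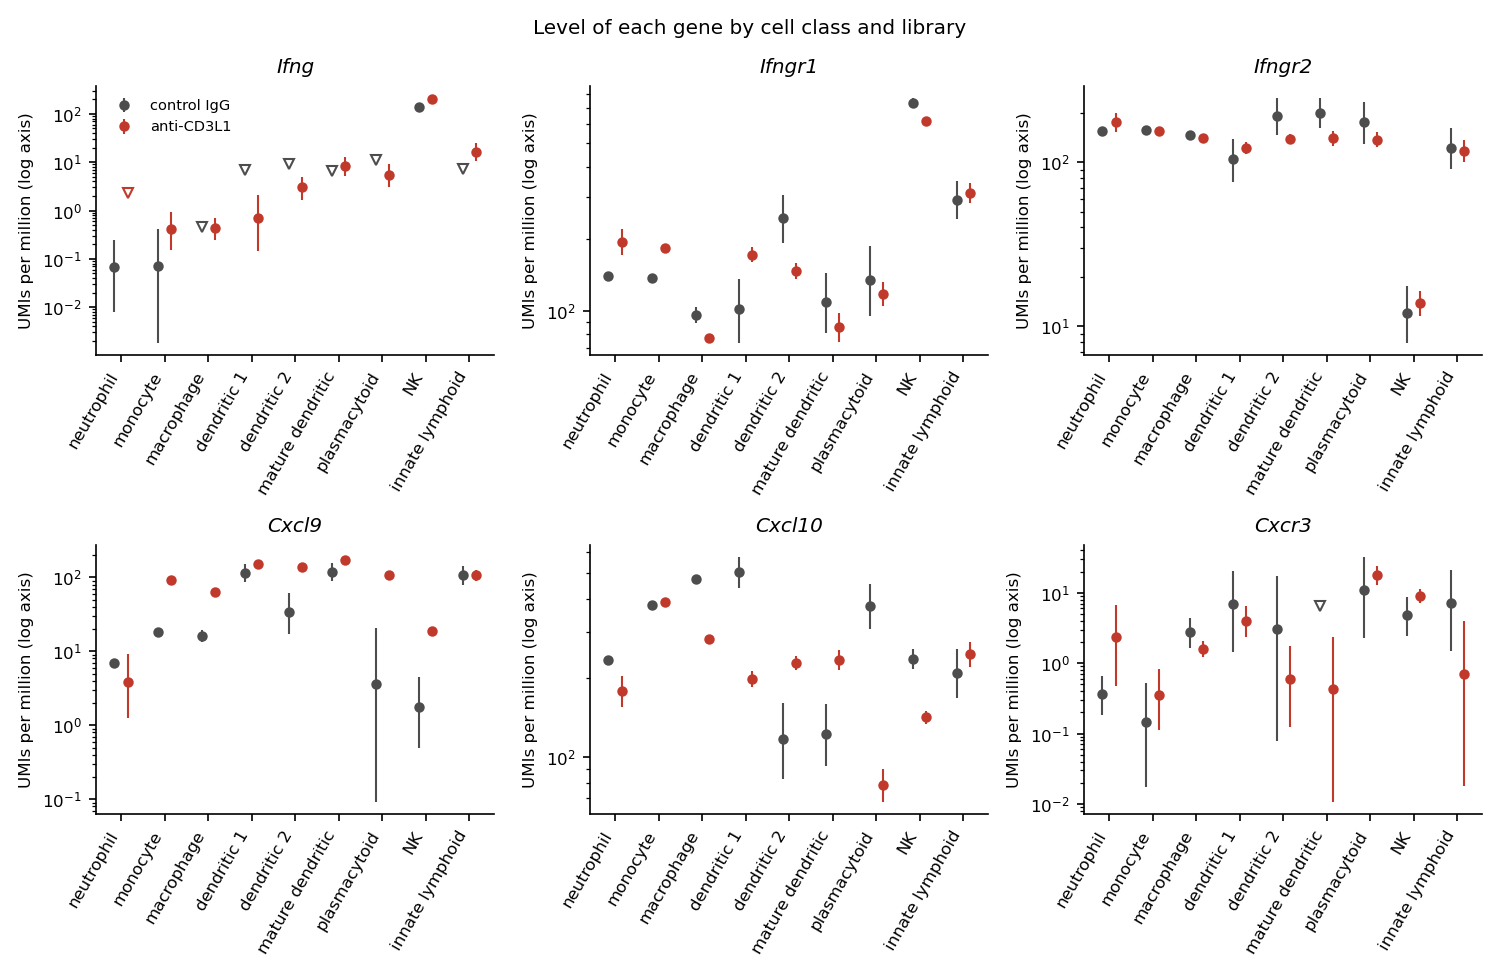
Level of each of the 6 genes (CPM, log axis, 1 panel a gene) in the 9 cell classes, grey for control IgG and red for anti-CD3L1; lines are 95% Poisson intervals and open triangles mark classes with 0 UMIs, drawn at 3 UMIs per class. Ifng stands at 139 and 201 CPM in NK-like cells, Ifngr1 is highest and Ifngr2 lowest in the same cells, and the Cxcl9 and Cxcl10 points part between the libraries in macrophage-like cells.

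The receptor chains stood at opposite ends of the 9 classes in NK-like cells. Of the 9 classes compared, Ifngr1 was highest in NK-like cells, at 734 CPM (699 to 770) in control IgG and 619 CPM (603 to 635) in anti-CD3L1. The T cell-like gate, too small to compare, stood at 921 CPM (617 to 1323, 29 UMIs in 4 cells) and 724 CPM (624 to 836, 186 UMIs in 32 cells). All other cells stood at 130.1 and 123 CPM, so NK-like cells were 5.64-fold and 5.01-fold above them. Innate lymphoid-like cells came next, at 291 and 312 CPM, and in control IgG did not differ beyond counting error from the 244 CPM of type 2 dendritic-like cells. Macrophage-like cells held the lowest Ifngr1 level of the 9 classes in both libraries, at 96.4 CPM (89.0 to 104) and 77.2 CPM (74.3 to 80.2), which in control IgG did not differ beyond counting error from the 102 CPM of type 1 dendritic-like cells and in anti-CD3L1 not from the 85.7 CPM of mature dendritic-like cells. Ifngr2 showed the reverse order at NK-like cells, which held 12.0 CPM (7.93 to 17.5) and 13.8 CPM (11.5 to 16.3). All other cells stood at 153 and 144 CPM, 12.7-fold and 10.4-fold above the NK-like level. Among the 8 other classes Ifngr2 ranged from 104 to 199.6 CPM in control IgG and from 117 to 176 CPM in anti-CD3L1. In control IgG no neighbours among those 8 in the order of levels differed beyond counting error. The ends of that order did part: mature dendritic-like cells (161 to 245) lay above type 1 dendritic-like cells (75.9 to 139). In anti-CD3L1 monocyte-like cells, at 155 CPM, stood above their neighbour, macrophage-like cells at 141 CPM, beyond counting error. The largest share of free RNA that the other classes' markers allow put at most 4.88 and 2.75 CPM of the NK-like Ifngr2 level on free RNA.

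Ifngr1 moved in both directions between the libraries, while the Ifngr2 interval held 0 in most classes. The Ifngr1 interval lay above 0 in 3 of 9 classes, below 0 in 3 and held 0 in 3, with log2 ratios from -0.73 to 0.76. In monocyte-like cells Ifngr1 stood at 137 CPM in control IgG and 184 CPM in anti-CD3L1. The log2 ratio was 0.42 (0.34 to 0.51), beside 0.24 for the median gene of these cells. In macrophage-like cells the Ifngr1 ratio was -0.32 (-0.45 to -0.19), beside 0.01 for the median gene. In NK-like cells the Ifngr1 ratio was -0.25 (-0.33 to -0.17), beside 0.14 for the median gene. In neutrophil-like cells it was 0.48 (0.29 to 0.66), while the median gene of these cells shifted by 0.67 between the libraries and their median depth fell from 4649 to 2217 UMIs. With cells thinned to 1000 UMIs the macrophage-like ratio was -0.095 (-0.60 to 0.44), a wide interval that holds the unthinned value. The Ifngr2 interval held 0 in 7 of 9 classes and lay below 0 in type 2 and mature dendritic-like cells, at -0.46 and -0.52. In macrophage-like cells Ifngr2 stood at 146 CPM (137 to 156) and 141 CPM (137 to 145). The log2 ratio was -0.06 (-0.16 to 0.05, counting error only), and with cells thinned to 1000 UMIs it was 0.071 (-0.32 to 0.49).

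The genes between receptor and response gave a mixed picture. Of 9 listed signalling genes, 9 were measured with at least 20 UMIs in macrophage-like cells and 0 differed by at least 2-fold; over all 13959 genes so tested, 6.12% were higher and 5.3% lower by that fold. Irf1, a transcription factor induced by interferon-gamma, had the highest ratio in these cells, at 106 CPM in control IgG and 177 CPM in anti-CD3L1 (log2 0.74, 0.63 to 0.85), while Socs3, a feedback inhibitor, went from 393 to 218 CPM (log2 -0.85, -0.92 to -0.79). In monocyte-like cells 1 of 9 was higher and 1 lower, beside 9.7% and 2.88% of all genes: Irf1 at a log2 ratio of 1.06 (0.97 to 1.14) and Socs3 at -1.16 (-1.22 to -1.10). In NK-like cells 0 of 9 passed 2-fold in either direction, beside 7.43% and 2.98% of all genes. The kinase gene Jak2 came nearest, at 275 CPM and 146 CPM (log2 -0.91, -1.05 to -0.77).

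**Figure D2:**
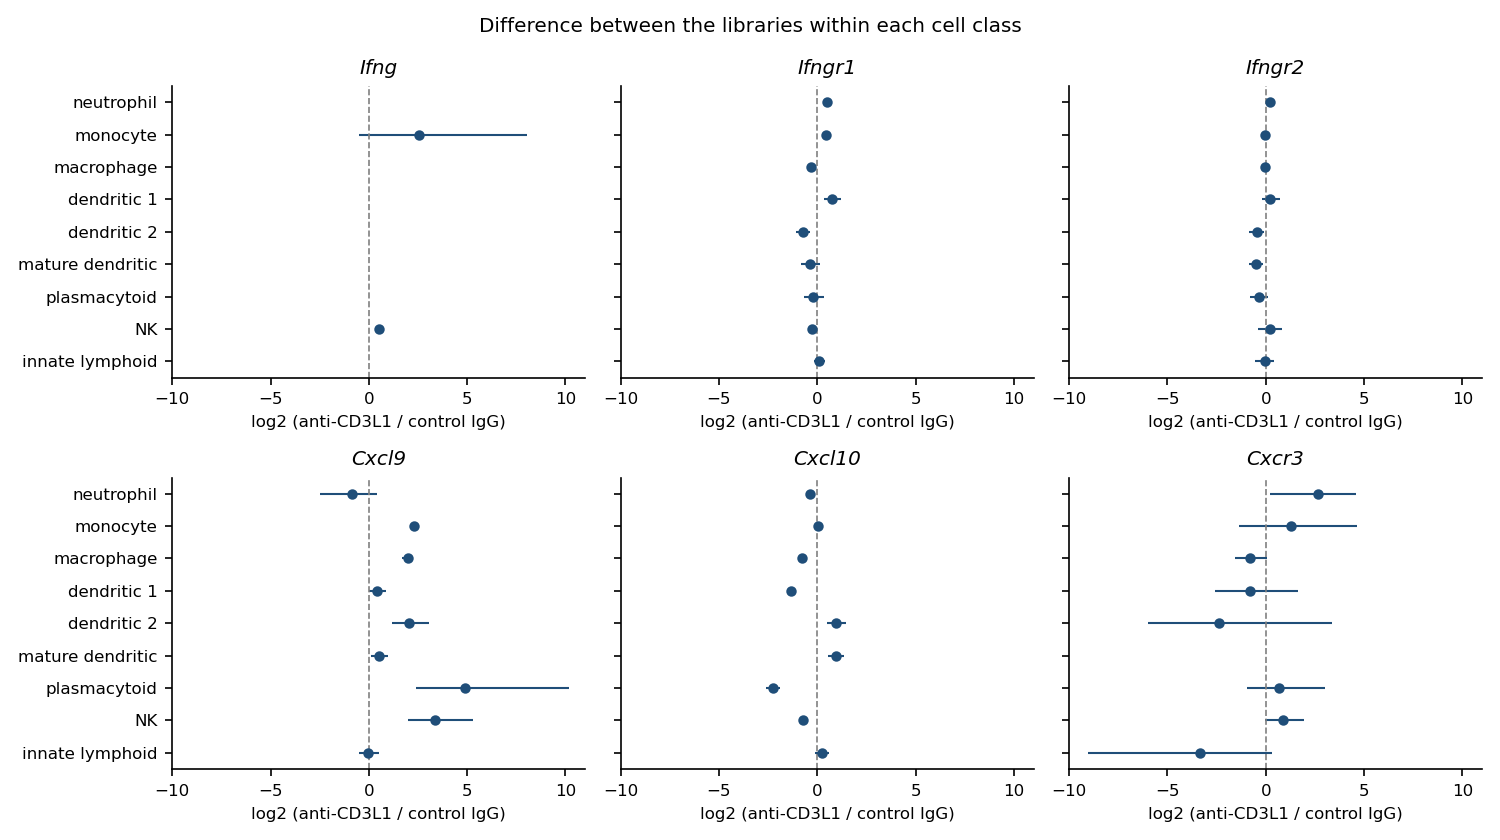
Log2 ratio of anti-CD3L1 to control IgG for each gene (1 panel each) in the 9 classes, with 95% conditional exact binomial intervals that cover counting error only; classes with 0 UMIs in a library have no point, and the dashed line marks no difference. The Cxcl9 points of monocyte-like and macrophage-like cells lie at 2.32 and 1.97, the Cxcl10 points of the same classes at 0.04 and -0.76, and the Ifngr2 points lie between -0.52 and 0.24.

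Cxcl9 was higher in the anti-CD3L1 library in 6 of 9 classes by counting error, and the interval held 0 in the other 3. Counting error does not cover UMIs gathered in few cells, as in several control IgG classes below. The share of all genes that passed counting error in each class was not taken. By at least 2-fold, 9.7% of all genes were higher in monocyte-like cells, 6.12% in macrophage-like cells and 7.43% in NK-like cells. Monocyte-like cells went from 18.2 CPM (16.0 to 20.6, 251 UMIs) to 91.0 CPM (86.1 to 96.1, 1302 UMIs), so that the log2 ratio reached 2.32 (2.12 to 2.52). Macrophage-like cells went from 16.3 CPM (13.4 to 19.7, 107 UMIs) to 63.8 CPM (61.2 to 66.5, 2234 UMIs), and here the log2 ratio was 1.97 (1.69 to 2.26). Type 1 and mature dendritic-like cells already held Cxcl9 in control IgG, on few cells. Type 1 dendritic-like cells stood at 116 and 153 CPM (log2 0.40, -0.01 to 0.85), but 29 of their 50 control IgG UMIs came from 1 cell. Mature dendritic-like cells stood at 118 and 169.7 CPM (log2 0.52, 0.11 to 0.96), with the control IgG UMIs in 2 of 34 cells. Type 2 dendritic-like cells went from 34.0 to 139 CPM (log2 2.03, 1.18 to 3.04), on 11 control IgG UMIs in 3 cells. Plasmacytoid dendritic-like cells held 1 UMI in 23 control IgG cells and 276 UMIs in 286 anti-CD3L1 cells. Innate lymphoid-like cells were at 108 and 107 CPM, with 37 of their 45 control IgG UMIs in 1 cell. Neutrophil-like cells were at 6.97 and 3.89 CPM, and 83 of their 210 control IgG UMIs came from 1 cell.

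The Cxcl9 difference in monocyte-like cells depended on how the class was drawn, and that in macrophage-like cells did so less. When classes were taken from graph clusters instead of the marker gate, monocyte-like cells stood at 46.8 and 61.2 CPM (log2 0.39) and macrophage-like cells at 13.9 and 88.5 CPM (log2 2.67). Ungated cells held 40.2% of the control IgG Cxcl9 UMIs and 31.6% of the anti-CD3L1 ones; 1 of them held 209 of the 501 UMIs of ungated control IgG cells. In the ungated cells Cxcl9 also stood higher in anti-CD3L1, at 40.5 CPM (37.0 to 44.2) against 132 CPM (127 to 137). Over all cells it went from 18.5 to 88.1 CPM (log2 2.25, 2.16 to 2.34), and at the control IgG class makeup the ratio was 1.55 (1.46 to 1.65). Near-empty droplets held 8.55 CPM (5.77 to 12.2) and 75.4 CPM (67.7 to 83.6). The other classes' markers allowed free RNA at most 6.40% and 2.13% of macrophage-like UMIs, and subtraction of these shares left a log2 ratio of 1.92.

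Cxcl9 was carried by a small share of cells. A UMI was found in 3.31% and 10.1% of monocyte-like cells, in 5.25% and 9.01% of macrophage-like cells and in 1.09% and 1.95% of NK-like cells, which are not a usual source. Thinned to 1000 UMIs, the monocyte-like share went from 0.755% (0.327 to 1.48) to 4.43% (3.51 to 5.50). The thinned macrophage-like share was 1.76% (0.764 to 3.44) and 3.04% (2.49 to 3.67). The monocyte-like intervals do not overlap and the macrophage-like ones do. These intervals count cells within 1 library each and do not test the treatments. Cells with at least 5 Cxcl9 UMIs were 8 and 107 of the macrophage-like cells and held 70.1% and 84.2% of the UMIs.

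Cxcl10 did not follow Cxcl9. In macrophage-like cells it fell from 475 CPM (458 to 492, 3115 UMIs) to 280.4 CPM (275 to 286, 9815 UMIs), and the log2 ratio was -0.76 (-0.82 to -0.70). In monocyte-like cells it was at 378 CPM (368 to 389) and 388 CPM (378 to 398), with no difference beyond counting error (log2 0.04, -0.02 to 0.09). Type 1 dendritic-like cells stood at 504 and 198 CPM (log2 -1.35, -1.56 to -1.13), with 73 of their 218 control IgG UMIs in 1 cell. Without the highest cell of each library their levels were 344 and 177 CPM. Neutrophil-like cells stood at 234 and 178 CPM (log2 -0.39, -0.59 to -0.20). Type 2 and mature dendritic-like cells went the other way, from 117 to 228 CPM and from 123 to 234 CPM, with log2 ratios of 0.96 (0.49 to 1.47) and 0.93 (0.53 to 1.35). Plasmacytoid dendritic-like cells stood at 376 and 78.3 CPM, but 98 of their 103 control IgG UMIs were in 1 cell, and without the highest cell of each library the levels were 19.2 and 66.7 CPM. The Cxcl10 interval lay above 0 in 2 of 9 classes, below 0 in 5 and held 0 in 2. The 5 include plasmacytoid dendritic-like cells, whose direction rested on that 1 cell.

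These Cxcl10 differences also moved with the class boundaries. With classes from graph clusters the macrophage-like levels were 468 and 389.6 CPM (log2 -0.26) and the monocyte-like levels 467 and 199.8 CPM (log2 -1.22). Without cells that scored for a second class the macrophage-like ratio was -0.43. A Cxcl10 UMI was found in 47.0% of control IgG and 42.9% of anti-CD3L1 macrophage-like cells, and after thinning in 20.5% (16.9 to 24.5) and 16.2% (15 to 17.5). Near-empty droplets held 271 and 261 CPM of Cxcl10, close to the 294 and 269.8 CPM of all cells. In NK-like cells, not a usual source, 29.0% and 24.8% held a UMI, at 236 and 142 CPM. By the other classes' markers, free RNA accounted for at most 12.9 and 7.65 CPM of these levels. The 10% of NK-like cells with the most Cxcl10 held 88.1% and 85.8% of its UMIs.

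The cells that made up the Cxcl10 signal changed more than its total. Over all cells its log2 ratio was -0.12 (-0.15 to -0.10). Neutrophil-like cells held 35.7% of control IgG Cxcl10 UMIs and 0.867% of the anti-CD3L1 ones, and macrophage-like cells held 15.7% and 37.2%. For Cxcl9 the neutrophil-like part was 16.9% and 0.0580%, and the macrophage-like part 8.59% and 25.9%. The cell shares of these classes moved the same way, from 60.2% to 3.96% and from 5.34% to 30.5% of cells.

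**Figure D3:**
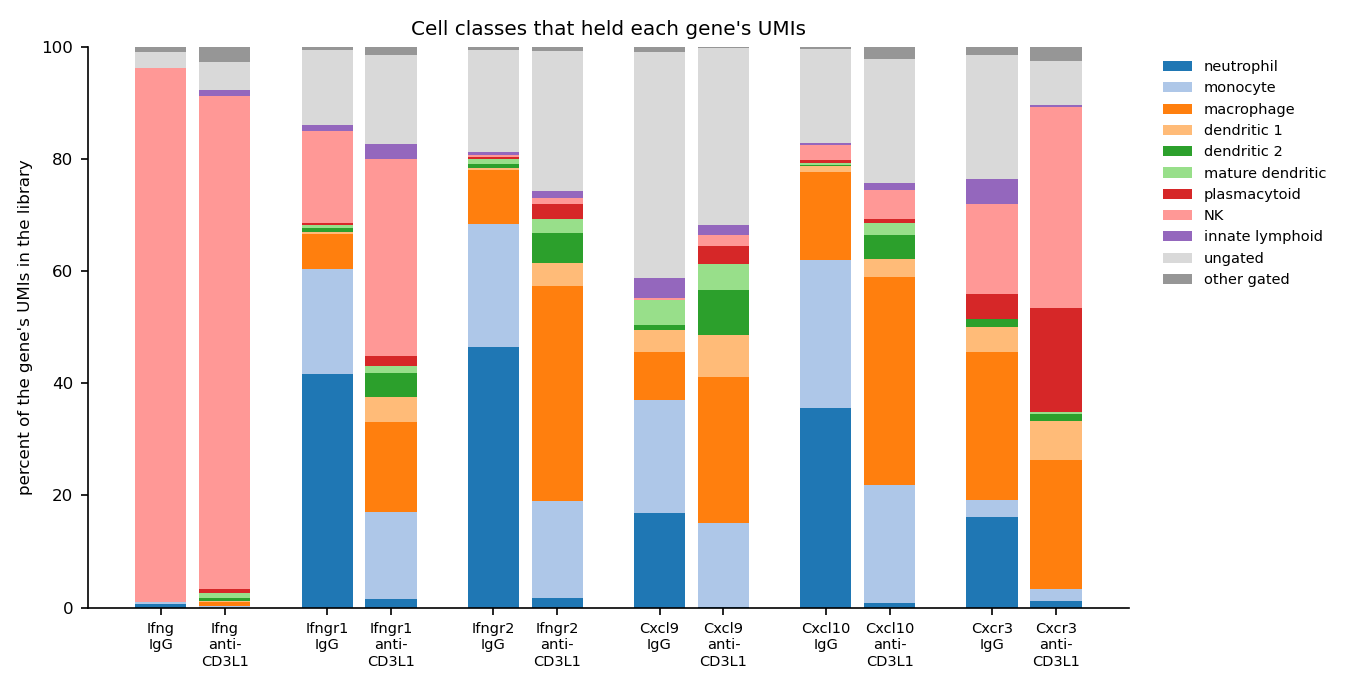
Share of each gene's UMIs in a library that each cell class held (stacked to 100 percent, left bar control IgG and right bar anti-CD3L1 for each gene; light grey, ungated; dark grey, gated classes that were not compared). NK-like cells fill 95.4% and 87.9% of the Ifng bars, and the neutrophil-like part of the Cxcl10 bar goes from 35.7% to 0.867%.

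Within a class both chemokines were highest in the cells with the strongest interferon response. Within each class and library, cells were ordered by the share of their UMIs in a list and cut into tertiles. The lists were of interferon-gamma response genes and of type I interferon response genes, and neither holds a chemokine. Tertiles of the same rank were not matched in list level between the libraries. In macrophage-like cells the interferon-gamma list stood at 984, 1676 and 3419 CPM in control IgG. In anti-CD3L1 that list stood at 1380, 2341 and 4329 CPM. In control IgG macrophage-like cells Cxcl9 stood at 2.20, 2.63 and 47.9 CPM from the lowest to the highest interferon-gamma tertile. In anti-CD3L1 Cxcl9 stood at 17.7, 26.4 and 153 CPM, so each tertile was above its control IgG counterpart in rank. Cxcl10 stood at 239, 359.7 and 874 CPM in control IgG and at 182, 199.8 and 471 CPM in anti-CD3L1, each tertile below its counterpart. Ordered by the type I list, Cxcl10 went from 114 to 1102 CPM in control IgG and from 85.4 to 606 CPM in anti-CD3L1. Cxcl9 went from 1.72 to 36.4 CPM and from 36.4 to 98.3 CPM by the same list. In monocyte-like cells Cxcl9 in the highest interferon-gamma tertile was at 55.1 CPM in control IgG and 234 CPM in anti-CD3L1, and Cxcl10 at 987 and 909.8 CPM. In the lowest tertile of these cells Cxcl10 stood at 86.7 CPM (78.4 to 95.6) in control IgG and 99.5 CPM (90.6 to 109) in anti-CD3L1, which overlap, and in the middle one at 93.2 CPM (84.6 to 102) and 163 CPM (152 to 175), which do not. Median depth ran from 13027 to 14571.5 UMIs over the macrophage-like tertiles of control IgG and from 9398.5 to 10308 over those of anti-CD3L1 in the interferon-gamma order; its part in the levels was not tested.

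**Figure D4:**
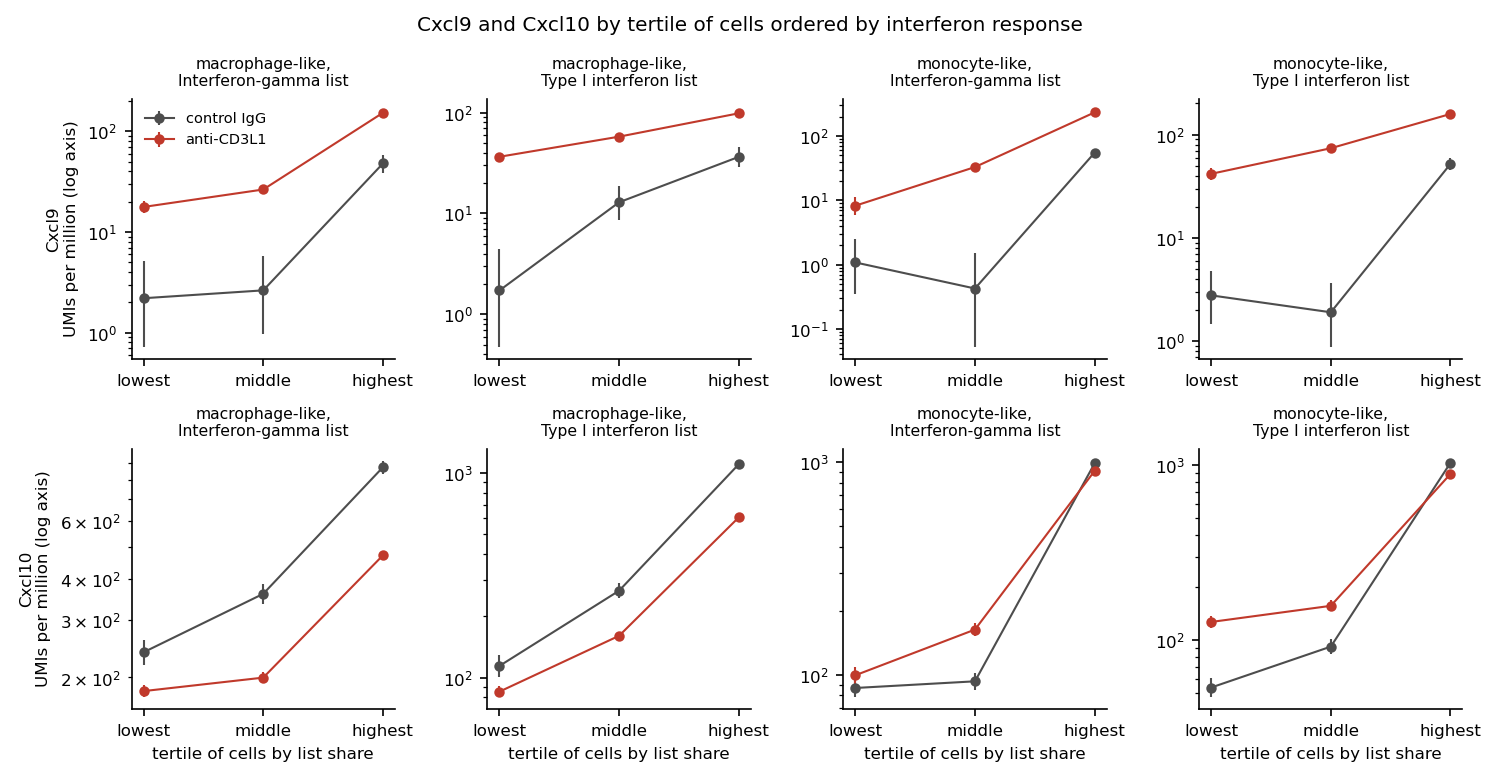
Cxcl9 (upper row) and Cxcl10 (lower row) levels (CPM, log axis) in tertiles of macrophage-like and monocyte-like cells ordered by their share of UMIs in the interferon-gamma or type I interferon list, grey for control IgG and red for anti-CD3L1, with 95% Poisson intervals. In macrophage-like cells the red Cxcl9 points lie above the grey ones in every tertile and the red Cxcl10 points below them. Tertiles were cut within each library and are not matched in list level between the libraries.

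The overlap of the chemokines in single cells was read after thinning. Among thinned anti-CD3L1 monocyte-like cells, 33.8% (23.4 to 45.4) of the 77 with Cxcl9 also held Cxcl10, against 15% (13.4 to 16.9) of those without Cxcl9, and these intervals do not overlap. Among anti-CD3L1 macrophage-like cells the shares were 25% (17.0 to 34.4) and 15.9% (14.7 to 17.2), whose intervals touch. In control IgG Cxcl10 was found in 3 of 8 Cxcl9 cells of the monocyte-like class and in 5 of 8 of the macrophage-like class.

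The interferon-gamma response list, the genes that this cytokine is best known to induce, leaned upward in macrophage-like and monocyte-like cells. Of 37 genes tested in macrophage-like cells, 7 were at least 2-fold higher and 2 at least 2-fold lower, beside 6.12% and 5.3% of all genes, with a median log2 ratio of 0.43 beside 0.01 over all genes. With free RNA subtracted the counts were 6 and 1. The 3 highest were genes of guanylate-binding proteins, which act in defence against microbes inside cells. Gbp10 had 0 control IgG UMIs and 68 anti-CD3L1 UMIs, Gbp4 went from 2.59 to 10.6 CPM (log2 2.04, 1.34 to 2.83), and Gbp2b from 16.9 to 46.1 CPM (log2 1.44, 1.17 to 1.74). The lowest were Nos2, which makes nitric oxide, from 10.2 to 0.828 CPM (log2 -3.62, -4.31 to -2.98), Upp1 at -2.35 (-2.61 to -2.09), and Tgtp1 at -0.36 (-1.68 to 1.22). In monocyte-like cells 10 of 37 were higher and 2 lower, beside 9.7% and 2.88% of all genes, with a median of 0.60 beside 0.24 over all genes. Ciita, the switch of MHC class II genes, went from 8.35 to 54.0 CPM there (log2 2.69, 2.41 to 2.99), and Nos2 from 53.8 to 2.52 CPM (log2 -4.42, -4.94 to -3.93). Neutrophil markers moved with the falls of Nos2 and Upp1: their median per cell went from 12 to 1 UMIs in macrophage-like cells and from 16 to 2 in monocyte-like cells, and neutrophil-like cells held Nos2 at 192 and 5.44 CPM and Upp1 at 953 and 243 CPM. Their part in the result was not tested. Gbp10 had 0 and 22 UMIs and Serpina3f 2 and 24. Among NK-like cells 4 of 36 were higher and 4 lower, beside 7.43% and 2.98% of all genes, with a median of 0.14 beside 0.14 over all genes. In the conventional dendritic classes summed together 3 of 36 were higher and 3 lower, with a median of 0.20 beside 0.08, where 9.11% and 4.59% of all genes passed.

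The type I interferon list had a median above that of all genes in every class described but the conventional dendritic ones. Of 21 genes tested in macrophage-like cells 0 passed 2-fold in either direction, beside 6.12% and 5.3% of all genes, with a median log2 ratio of 0.24 beside 0.01. Irf7, the regulator of type I interferon genes, stood highest at 0.72 (0.64 to 0.80), and Oas1a lowest at -0.75 (-0.91 to -0.58). In monocyte-like cells 0 were higher and 1 lower, beside 9.7% and 2.88% of all genes, with a median of 0.45 beside 0.24. In NK-like cells 1 was higher and 0 lower, beside 7.43% and 2.98% of all genes, with a median of 0.33 beside 0.14. In the conventional dendritic classes 0 were higher and 2 lower, beside 9.11% and 4.59% of all genes, with a median of -0.38 beside 0.08. In neutrophil-like cells 17 of 21 were higher, with a median of 1.32, and 16 of 31 interferon-gamma response genes were, with a median of 1.14; the median over all genes there was 0.67, and 34.6% of all genes were higher by at least 2-fold and 4.9% lower.

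The genes upstream of Ifng include the cytokines that induce it and their receptors. The list also holds transcription factor genes and Il18bp, which encodes an interleukin-18 binding protein and not an inducer. Of the 15 listed genes tested in NK-like cells, 0 were at least 2-fold higher and 3 at least 2-fold lower, beside 7.43% and 2.98% of all genes. Their median log2 ratio was -0.30 beside 0.14. Il18r1, a chain of the interleukin-18 receptor, went from 416 to 167 CPM (log2 -1.32, -1.44 to -1.20). Ebi3 had 30 and 15 UMIs and Il27 had 7 and 15. Tbx21, which encodes the transcription factor T-bet that drives Ifng, stood highest at 127 and 188 CPM (log2 0.57, 0.39 to 0.76), followed by Il18bp on 6 and 31 UMIs and Il12rb2, a chain of the interleukin-12 receptor, at 311 and 342 CPM (log2 0.13, 0.02 to 0.25). In macrophage-like cells 4 of 16 were higher and 5 lower, beside 6.12% and 5.3% of all genes. Both interleukin-12 subunit genes were among the lower: Il12b had 44 and 72 UMIs (log2 -1.71, -2.27 to -1.13) and Il12a 20 and 9. Neutrophil-like cells held Il12a at 56.3 CPM in control IgG and 1.56 CPM in anti-CD3L1. The median of neutrophil markers in macrophage-like cells went from 12 to 1 UMIs, and its part in the Il12a counts was not tested. The highest there were Il2rb on 4 and 138 UMIs, Tbx21 on 1 and 39, and Il12rb1 on 2 and 46, genes best known from lymphoid cells.

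Cxcr3 was sparse, with 68 UMIs in the control IgG cells and 243 in the anti-CD3L1 cells. Of the 9 classes compared, Cxcr3 was highest in plasmacytoid dendritic-like cells, at 11 CPM (2.26 to 32.0, 3 UMIs) and 17.7 CPM (12.9 to 23.7, 45 UMIs). This lead over the next class passed counting error in anti-CD3L1 only. The T cell-like gate, too small to compare, held 0 Cxcr3 UMIs in 4 control IgG cells. In anti-CD3L1 that gate stood higher than the plasmacytoid class, at 23.4 CPM (8.58 to 50.9, 6 UMIs in 32 cells). NK-like cells held 4.90 CPM (2.45 to 8.77, 11 UMIs) and 9.08 CPM (7.28 to 11.2, 87 UMIs), and the interval of their log2 ratio held 0 (0.89, -0.02 to 1.94). NK-like cells stood 5.59-fold and 5.14-fold above all other cells. Macrophage-like cells held 2.74 CPM (18 UMIs) and 1.60 CPM (56 UMIs), a log2 ratio of -0.78 (-1.57 to 0.08). In the anti-CD3L1 library 35.8% of Cxcr3 UMIs were in NK-like cells and 18.5% in plasmacytoid dendritic-like cells. A UMI was found in 5.46% and 7.59% of NK-like cells and in 0.189% and 0.286% of monocyte-like cells. The Cxcr3 interval held 0 in 7 of 9 classes, was open in mature dendritic-like cells for want of UMIs, and lay above 0 in neutrophil-like cells, on 11 and 3 UMIs. Over all cells Cxcr3 went from 1.01 to 2.48 CPM, a log2 ratio of 1.30 (0.90 to 1.71), and at the control IgG class makeup the ratio was 0.91 (-0.06 to 1.88). Of the other binders in this system, Pf4, a platelet-type chemokine that is also a macrophage marker of the gate, stood at 860.3 and 342 CPM in macrophage-like cells, and Dpp4, the peptidase that trims these chemokines, had 20 and 47 UMIs.

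Across the 9 classes of both libraries, 18 points in all, the genes most like Ifng by Pearson's r of log2 level were Spry4 (0.99), Klrc1 (0.98), Klrc2 (0.98), Rnf43 (0.98) and Gm2682 (0.97) among 14794 genes with at least 50 UMIs. For Ifngr1 they were Gm33104 (0.90), Gm39323, D16Ertd472e, Adgrb2 and I730030J21Rik (0.88). For Ifngr2 they were St3gal1 (0.93), Syk, Spi1, Gsn and Slc15a3 (0.92). For Cxcl9 they included Tmem150b (0.92), Alpk2, Pak4 and Mamld1 (0.83). For Cxcl10 they were Col1a2 (0.80), Ip6k3, Il4ra, Timm8b and Gm26810 (0.70), and for Cxcr3 Ranbp9 (0.87), Tfrc, Hsdl2, Slc7a5 and Gm49625 (0.84). Among the 6 genes themselves Ifng and Ifngr1 had an r of 0.70, Ifng and Ifngr2 -0.88, and Cxcl9 and Cxcl10 -0.15. The points share libraries, depth and free RNA.

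**Figure D5:**
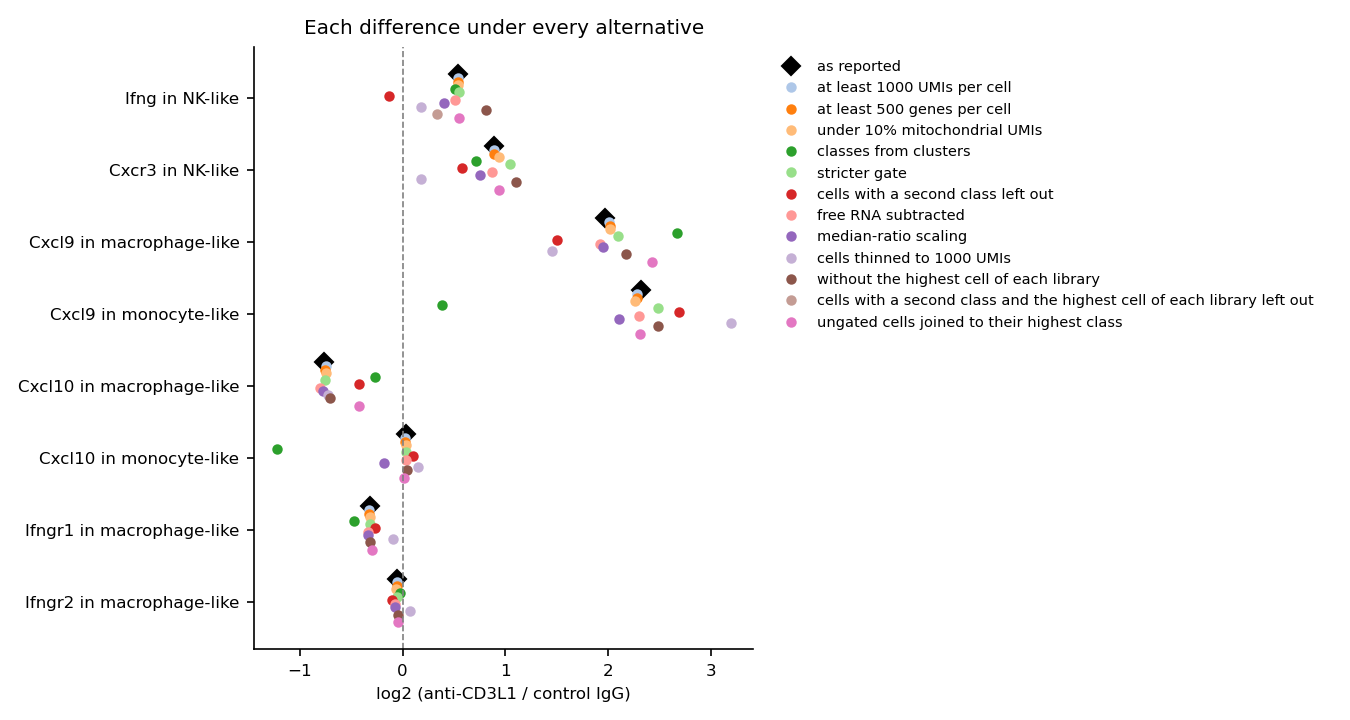
Log2 ratio of anti-CD3L1 to control IgG for the 8 gene and class pairs followed through every processing alternative (black diamonds, as reported; coloured points, alternatives named in the key; dashed line, no difference). Cxcl9 stays above 0 in both classes, Cxcl10 in macrophage-like cells stays below 0, and Ifng in NK-like cells runs from -0.14 to 0.81.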

How the data were processed

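The deposited matrices hold raw UMI counts per gene and barcode, not normalized; the authors made them from 10x Genomics Chromium libraries with Cell Ranger 7.1.0, then used Seurat 5.1.0, and the submitters' processing notes name GRCm39. Gene positions and promoters come from GRCm38 and were not converted. A deposited table of the authors' own macrophage comparison (p-values, log2 fold changes and shares of cells) was not used.

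Barcodes with at least 500 UMIs, more than 200 and fewer than 6000 genes and under 5% mitochondrial UMIs were kept. Each cell took the class with the highest mean marker z-score (log of UMIs per 10000, libraries weighted equally, clipped at 5) if that score was over 0.4, led by over 0.2 and rested on at least 3 markers; 14 classes were scored. In control IgG and anti-CD3L1 NK-like cells 0.546% and 1.95% lay within 0.1 of a cut, in macrophage-like cells 6.35% and 7.38%, and in monocyte-like cells 10.4% and 15.1%. No doublet caller was run; cells with a second class were left out as an alternative. Markers of other classes in the NK-like cells had medians of 18 and 12 UMIs (type 1 dendritic), 11 and 23 (mature dendritic) and 6 and 5 (T cell), against 54 and 39 of NK markers.

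UMIs were summed per class and library. Levels carry exact Poisson intervals, ratios conditional exact binomial intervals, and shares exact Clopper-Pearson intervals, all at 95%. List counts and medians added 0.5 UMI and used genes with at least 20 UMIs; ratios of single genes have none added. Likeness added 1 CPM. Eomes was in the inducer list and in the NK markers. Irf8 was in the interferon-gamma response list and in the type 1 dendritic markers. Their levels in those classes depend in part on the gate. Wars1 and Rigi entered under the symbols Wars and Ddx58; Mx1, Mx2 and Cxcl11 were not analysed here. A gene among those most like Cxcl9 is not reported here. Named genes were the 6 members and, per list and class described, up to 3 highest and 3 lowest ratios. The members and lists were chosen with earlier results of these data known. The analysis used Python 3.11.15, scipy 1.17.1 and scanpy 1.11.5 (clustering alternative).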

Additional observations from a re-analysis of the deposited data

How the results depend on the processing

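Values are log2 ratios of anti-CD3L1 to control IgG. Raising the depth or gene minimum, allowing 10% mitochondrial UMIs, a stricter gate and subtraction of free RNA (6 list genes higher and 1 lower) left each of the 9 followed results within its counting interval (for the list, within 0.1 of its median), as did 50 UMIs or 1 UMI per gene for the list. Leaving out cells with a second class gave Ifng in NK-like cells -0.14 (-0.37 to 0.10), Cxcl9 1.50 in macrophage-like and 2.69 in monocyte-like cells, Cxcl10 -0.43 and 0.10, and the interferon-gamma list 0.62. Classes from graph clusters gave Cxcl9 2.67 and 0.39, Cxcl10 -0.26 and -1.22 in the same order, Ifngr1 in macrophage-like cells -0.47 and the list 0.83, with 13 genes higher in place of 7 and 3 lower in place of 2. Thinning every cell to 1000 UMIs gave Ifng 0.18 (-0.31 to 0.71) and Cxcl9 1.45 (0.62 to 2.42) and 3.19 (2.38 to 4.13). It gave Cxcl10 0.15 (-0.03 to 0.33) in monocyte-like cells. In macrophage-like cells it gave Ifngr1 -0.095 (-0.60 to 0.44) and Ifngr2 0.071 (-0.32 to 0.49). Each of these intervals holds the reported value except that of Cxcl9 in monocyte-like cells. With thinning, 4 list genes were higher and 1 lower among 32 tested. Setting the median gene of the class to a ratio of 0 gave 2.10 for Cxcl9 and -0.18 for Cxcl10 in monocyte-like cells. Chosen after seeing the data, joining ungated cells to their highest class gave 2.43 for Cxcl9 and -0.42 for Cxcl10 in macrophage-like cells and 0.60 for the list, and leaving out the highest cell of each library gave 0.81 for Ifng, or 0.33 where cells with a second class were also left out. The causes were not tested. Of 101 alternative values for the 9 results, 76 were within those bounds. The sign changed for Ifng without second-class cells and, where the reported interval already held 0, for Cxcl10 in monocyte-like cells (clusters and median gene) and Ifngr2 (thinning). Cxcr3 in NK-like cells kept its direction in 11 of 11, from 0.18 to 1.10, on 11 control IgG UMIs. No paired analysis was possible because each treatment has 1 library and the labels carry no replicate numbers. Depth limits Cxcr3 everywhere and every member in the control IgG dendritic classes, which held 22 to 34 cells each.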
